A study of Mus musculus with 11 samples.

Results

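Sox9 encodes an HMG-box transcription factor and lies on mouse chromosome 11 between Kcnj2, which encodes an inward-rectifier potassium channel, and Slc39a11, which encodes a zinc transporter. The regions described are the stretches of open chromatin found by ATAC-seq between the gene bodies of Kcnj2 and Slc39a11, a stretch of 2168 kb (GRCm38, chr11:111076826-113244850). The deposited interval lists of 11 libraries were merged wherever they overlapped by at least 1 bp, which gave 124941 regions in the genome, and 166 of them lay in this stretch. The Sox9 gene body (gene ID 20682, chr11:112782210-112787757) held 2 of the 166, the gap of 1705 kb towards Kcnj2 held 84, and the gap of 457 kb towards Slc39a11 held 80. Of the 166 regions, 133 lay more than 50 kb from any protein-coding gene body, against 20585 of all regions. One predicted coding gene inside the stretch, Gm11677, was not used as a boundary, and the annotation places 15 noncoding genes there, 14 of them long noncoding RNAs.

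ATAC-seq cuts accessible DNA with a transposase, and each library is a list of intervals where cuts were enriched. A region was called open in a library when an interval of that library overlapped it by at least 1 bp. There were 4 groups of sorted mouse cells. WT (n = 3) were cells with low EpCAM from the esophagus of wild-type CD1 mice. SmoM2 (n = 3) were cells with high EpCAM from the esophagus of Krt5-SmoM2 mice, also CD1. SmoM2 is a constitutively active form of Smoothened, the signal transducer of the Hedgehog pathway, and the genotype names Krt5, a gene of basal keratinocytes, as its driver. SmoM2-Sox9cKO (n = 3) were cells with high EpCAM from the esophagus of mice labelled Krt5-SmoM2-Sox9fl/fl, in which both Sox9 alleles carry loxP sites; their strain is not given in the labels. Embryo (n = 2) were YFP-positive cells from the esophagus of Krt8YFP embryos at day 13 (E13), and no strain is given for them. The labels state no age for the first 3 groups, called here the 9 esophagus libraries, and nothing in them says that the replicates of a group are different animals, so a p-value speaks only of the spread among these libraries. WT differed from the other 2 esophagus groups both in genotype and in the EpCAM gate, and these cannot be told apart.

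SOX9 is known for its part in cartilage formation, in testis determination and in progenitor cells of many epithelia. Sox9 is flanked by a long gene desert that holds many distal enhancers, some of them very far from the gene, and mutations that remove or move such elements are linked to skeletal and gonadal disease. In the foregut Sox9 is active in the embryonic epithelium, and in skin and other tissues Hedgehog signalling is known to act upstream of it.

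The reference holds the sequence before the start of 14 of the 17 genes in the stretch, all from RefSeq GRCm38.p6; Sox9, Gm11675 and Gm30562 have no entry. In 4 of the 14 genes the sequence overlapped an open region. The 250 bases before the start are shown for 3 of them because they differ in where they were open: the first lay in a region open in all 11 libraries, the next in one open in all 9 esophagus libraries and 1 Embryo library, and the last in one open in 2 WT libraries only. All 3 are on the minus strand, at chr11:113201839-113202088, chr11:113209670-113209919 and chr11:112799009-112799258, and capitals mark the bases inside the open region.
2610035D17Rik: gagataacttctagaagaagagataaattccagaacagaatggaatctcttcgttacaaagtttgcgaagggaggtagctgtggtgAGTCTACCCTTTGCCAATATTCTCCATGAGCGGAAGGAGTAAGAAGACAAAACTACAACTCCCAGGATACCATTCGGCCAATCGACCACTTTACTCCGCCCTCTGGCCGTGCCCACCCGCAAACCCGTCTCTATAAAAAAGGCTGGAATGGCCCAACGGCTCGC
4732490B19Rik: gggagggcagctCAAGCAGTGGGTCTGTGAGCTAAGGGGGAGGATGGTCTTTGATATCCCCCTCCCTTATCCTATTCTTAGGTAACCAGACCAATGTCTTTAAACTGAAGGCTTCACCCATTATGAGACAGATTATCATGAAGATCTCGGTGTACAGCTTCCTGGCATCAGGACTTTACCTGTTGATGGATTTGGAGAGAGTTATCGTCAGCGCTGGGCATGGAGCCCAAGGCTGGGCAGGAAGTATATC
Gm11681: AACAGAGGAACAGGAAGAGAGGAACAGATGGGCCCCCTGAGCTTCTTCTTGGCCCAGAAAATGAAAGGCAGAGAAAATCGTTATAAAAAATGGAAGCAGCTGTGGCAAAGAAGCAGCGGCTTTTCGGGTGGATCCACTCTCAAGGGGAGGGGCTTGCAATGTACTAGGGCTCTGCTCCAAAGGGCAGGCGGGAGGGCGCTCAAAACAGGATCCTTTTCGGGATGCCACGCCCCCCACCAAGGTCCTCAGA
The fourth, Gm39467, has a TG-rich repeat there and is not printed.

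These 3 stretches were searched on both strands for 6 short motifs, and the share of 32619 promoters with a match is given for each. The SOX core was searched as ACAAAG, found in 16.5% of promoters, with ACAATG as its other form, found in 10.4%. A GLI site, bound by the effectors of Hedgehog signalling, was searched as GACCACCCA, found in 0.227%. The AP-1 site was TGANTCA, found in 6.78%. A GC box was searched as GGGCGG, found in 33%, and the CCAAT box by its own letters, found in 34%. None of the matches given here overlaps another. The 2610035D17Rik stretch held ACAAAG 195 bases before the start, outside the open part, a GC box on the other strand at 69 bases, and CCAAT at 151 and 87 bases, with a GC content of 48.8% and 11 CG pairs. In the 4732490B19Rik stretch CCAAT was found at 160 bases, with a GC content of 49.6% and 3 CG pairs. The Gm11681 stretch held none of the 6 motifs, with a GC content of 54.4% and 7 CG pairs. Over all promoters the median GC content was 52.4% and the median number of CG pairs was 6. A match is a description of the letters, not of a bound site.

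The esophagus lists held 69026 to 87910 intervals and the Embryo lists 24902 and 14255, and the number of reads behind them is unknown. Intervals at 4 Y-linked genes, a sign of the sex of the animals, numbered 5, 0 and 0 in WT replicates 1 to 3, 9 in each SmoM2 library, 8, 10 and 0 in SmoM2-Sox9cKO replicates 1 to 3, and 0 in both Embryo libraries. Open regions at the 10 basal epithelial markers summed to 68 to 75 in WT, 69 to 87 in SmoM2, 77 to 80 in SmoM2-Sox9cKO and 14 to 19 in Embryo, where Krt5 was at 0. The 5 endothelial markers summed to 13 to 15, 18 to 21, 19 to 20 and 0 to 3 in the same order. Emcn was at 0 in WT and Embryo, and also in SmoM2 replicate 2 and SmoM2-Sox9cKO replicate 1. Pecam1 had 9, 10 and 10 in WT, 13, 12 and 13 in SmoM2 and 14, 13 and 13 in SmoM2-Sox9cKO. Cdh5 was at 1 in every esophagus library but SmoM2-Sox9cKO replicate 2, and Kdr at 1 in every one but SmoM2 replicate 1. In the order given above, the 6 immune markers summed to 5 to 9, 8 to 11, 9 to 12 and 1. Of these, Lyz2 and Cd207 were at 0 in every library, and Ptprc was at 0 in WT and Embryo and at 0 or 1 elsewhere. The 7 fibroblast markers summed to 8 to 10, 11 to 12, 12 and 3 to 5, with Lum at 0 in every group. Y-linked intervals and several marker sums thus differed between the groups compared, but markers within a list did not all move the same way. Among the fibroblast markers, Dpt had 3, 2 and 1 open regions in WT replicates 1 to 3 and 0 elsewhere. Twist2 went the other way, with 3 to 5 in SmoM2-Sox9cKO, 4 throughout SmoM2 and at most 1 in WT. Such counts do not show which cell types were present. The part of sex and of other cell types in the results was not tested except where a value is given.

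At Sox9 itself the chromatin was open in every library. The region over the start coordinate of the gene body (chr11:112781281-112783193, 1913 bp) was the fourth widest of the 166. Its fold enrichment, the authors' value for each peak over local background, was 6.81, 6.31 and 5.79 in WT, 7.56, 5.84 and 7.45 in SmoM2, 6.77, 7.68 and 7.30 in SmoM2-Sox9cKO, and 2.95 and 4.45 in Embryo. Within their own lists these values ranked between the 58.8 and 75.3 percentile in the esophagus libraries and at the 7.9 and 54.2 percentile in the Embryo libraries; folds are not compared between libraries. All 3 SmoM2-Sox9cKO libraries thus held an interval at the Sox9 start; the labels do not say which part of the gene the floxed alleles lose, so this region does not check the deletion.

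Only 3 other regions lay in the Sox9 body or within 10 kb of it. A region 0.2 kb from the far end of the gene body (chr11:112787961-112788827) was open in all 9 esophagus libraries and in neither Embryo library. Inside the body, chr11:112784107-112784503 was open in Embryo replicate 1 alone. A narrow region 6.9 kb away on the Slc39a11 side (chr11:112794678-112794922) was open in SmoM2-Sox9cKO replicate 2 alone. Within 10 kb of the gene, then, 2 regions were shared by the 9 esophagus libraries and no region was called in a comparison.

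**Figure D1:**
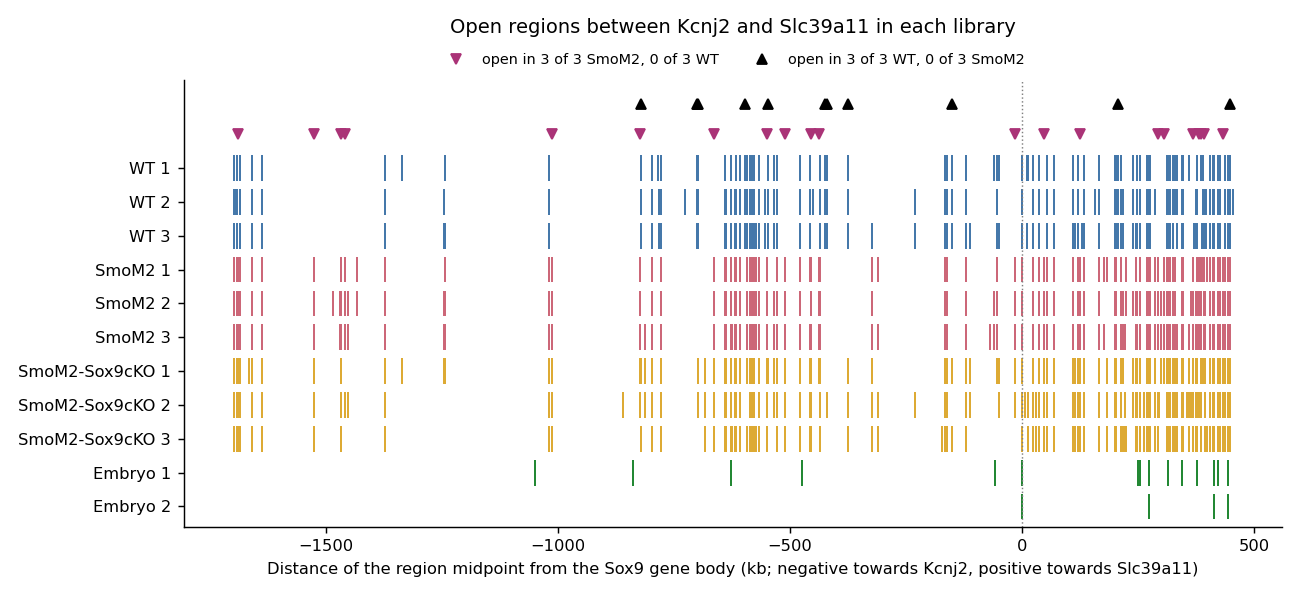
Open regions of the Sox9 stretch by library. Each row is one library and each mark one of the 166 regions, placed by its distance in kb from the Sox9 gene body (Kcnj2 side to the left, Slc39a11 side to the right); colours separate WT, SmoM2, SmoM2-Sox9cKO and Embryo, and triangles mark the regions open in 3 of 3 SmoM2 and 0 of 3 WT libraries or the reverse. The marks thin out beyond 1000 kb on the Kcnj2 side and crowd between 250 and 457 kb on the Slc39a11 side.

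The regions were spread unevenly around Sox9. Between 250 kb and the end of the gap on the Slc39a11 side there were 48 regions, or 23.18 per 100 kb, and more than 1000 kb away on the Kcnj2 side there were 22, or 3.12 per 100 kb. The longest stretches without any region, of 194.1, 152.8 and 111.9 kb, all lay on the Kcnj2 side. Compared with the 722 gene neighbourhoods whose 2 gaps add up to at least 1 Mb, called deserts here, that of Sox9 ranked 2 by its number of regions and 16 by density, with 76.6 regions per Mb against a median of 11.6 and a highest value of 117.2. The desert around Sox9 was therefore denser in open regions than most gaps of such length. Its boundary differs from theirs: other neighbourhoods end at any coding gene, predicted ones included, while that of Sox9 runs past Gm11677. Deserts are counted per gene, so genes beside one gap share it, and the desert of Gm11677 lies inside the Sox9 stretch.

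Among the 166 regions, 54 (32.5%) were open in all 9 esophagus libraries, close to 35.6% of all regions, and 20 (12%) were open in 1 of the 9, against 16.6% of all. Beyond 50 kb from a coding gene the share open in all 9 was 29.3% for the stretch and 26.2% for all such regions. Regions open in all 9 were the widest, with a median of 1051 bp, against 646 bp for those open in 2 to 8 libraries and 248 bp for those open in 1. The widest region of all (chr11:113132154-113134375, 2222 bp) was open in all 9, and so was the outermost on the Kcnj2 side (chr11:111082219-111083377), 1698.8 kb from Sox9. At the other end, chr11:113241085-113241375 at 453.3 kb was open in 1 WT library.

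Of the 166 regions, 118 lay outside any annotated gene. The long noncoding gene 2610035D17Rik, whose start is printed above, held 38 regions, 13 of them open in all 9 esophagus libraries. Of those 38, 12 also lay in the overlapping noncoding gene LOC115487747, with 3 open in all 9. Gm39461 held 3 and Gm11681 held 2, and 1700012H19Rik, 4732490B19Rik, BC006965 and Gm39467 held 1 each.

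With the full lists, on average fewer of these regions were open in WT than in the other 2 esophagus groups, but only SmoM2-Sox9cKO and WT did not overlap. WT replicates 1 to 3 had 85, 91 and 97 open regions, SmoM2 96, 104 and 108, and SmoM2-Sox9cKO 109, 111 and 102. WT and SmoM2 overlapped by 1 library each, SmoM2-Sox9cKO overlapped SmoM2 through its replicate 3 alone, and all SmoM2-Sox9cKO libraries lay above all WT libraries. When all lists were cut to their 14255 strongest intervals, the order of WT and SmoM2 was reversed. WT was then open at 17, 15 and 15 regions, SmoM2 at 13, 13 and 12 and SmoM2-Sox9cKO at 14, 16 and 17. With the full lists, the values per 1000 open regions of the library were 1.274, 1.202 and 1.301 in WT, 1.242, 1.41 and 1.266 in SmoM2 and 1.353, 1.501 and 1.42 in SmoM2-Sox9cKO.

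By this share SmoM2 exceeded WT by 0.047 (1.306 ± 0.091 against 1.259 ± 0.051, SD, n = 3; two-sided exact permutation p = 0.6), and without SmoM2 replicate 2 the difference was -0.005. SmoM2-Sox9cKO exceeded SmoM2 by 0.118 (1.424 ± 0.074, n = 3; exact permutation p = 0.2) and WT by 0.165 (n = 3; exact permutation p = 0.1). The last value is the smallest p that 3 against 3 allows, and those groups did not overlap.

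**Figure D2:**
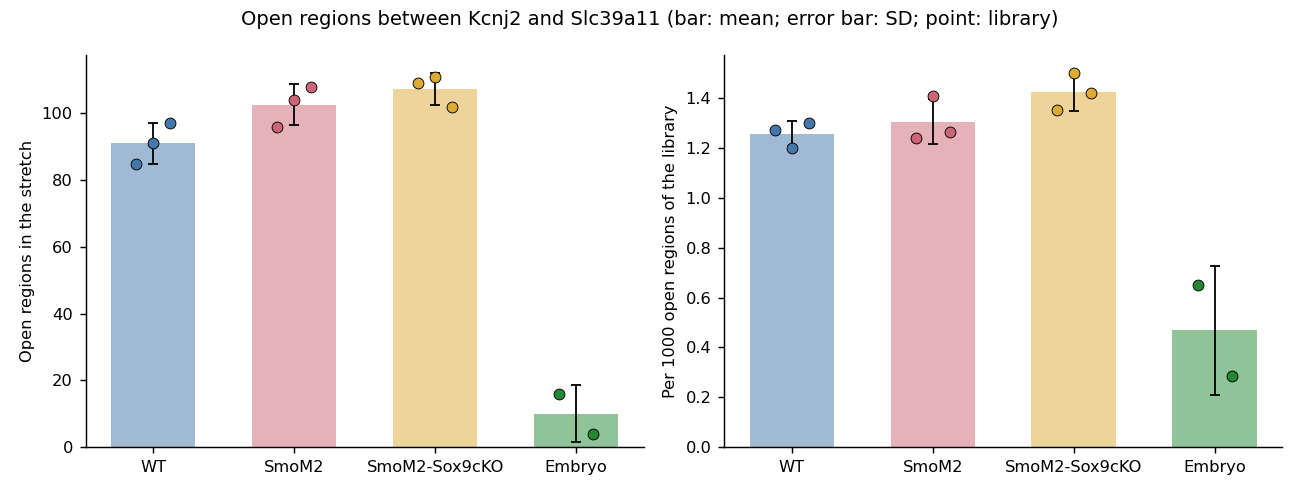
Open regions of the Sox9 stretch in each library. Points are libraries and bars group means with SD (n = 3, Embryo n = 2), as a number and per 1000 open regions of the library; SmoM2-Sox9cKO lies between 102 and 111 regions, WT between 85 and 97 and Embryo at 16 and 4.

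The Sox9 neighbourhood as a whole was not called in any comparison. Numbers of open regions were tested with limma over 17338 gene neighbourhoods, scaled to the library's total on a log2 scale with a pseudocount of 0.5 regions. Each neighbourhood reached from the coding gene before to the coding gene after, but that of Sox9 ran past Gm11677 to Kcnj2. The log2 change at Sox9 was 0.05 (SE 0.06, adjusted p = 0.573) for SmoM2 against WT, 0.13 (SE 0.06, adjusted p = 0.405) for SmoM2-Sox9cKO against SmoM2 and 0.18 (SE 0.06, adjusted p = 0.111) for SmoM2-Sox9cKO against WT, by limma with Benjamini-Hochberg adjustment. Of all neighbourhoods, 14.4%, 0.929% and 9.3% were called in these comparisons. The scaling shifts the median of all neighbourhoods to -0.12, 0.06 and -0.06, and relative to it Sox9 stood at 0.17, 0.06 and 0.24. Among the neighbourhoods called, 48.4%, 34.2% and 52% were higher in the first group, and without scaling 73%, 35.2% and 65.6%. For Sox9 the change lay at the 69.7, 70.5 and 76 percentile of all neighbourhoods. With covered base pairs in place of the number of open regions, SmoM2-Sox9cKO against WT passed the threshold at Sox9 (log2 0.17, limma adjusted p = 0.0429). That measure called 2924 of the 17338 neighbourhoods in this comparison, against 1613 by the number of open regions. Leaving out SmoM2 replicate 2 turned SmoM2 against WT to -0.01 at Sox9.

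**Figure D3:**
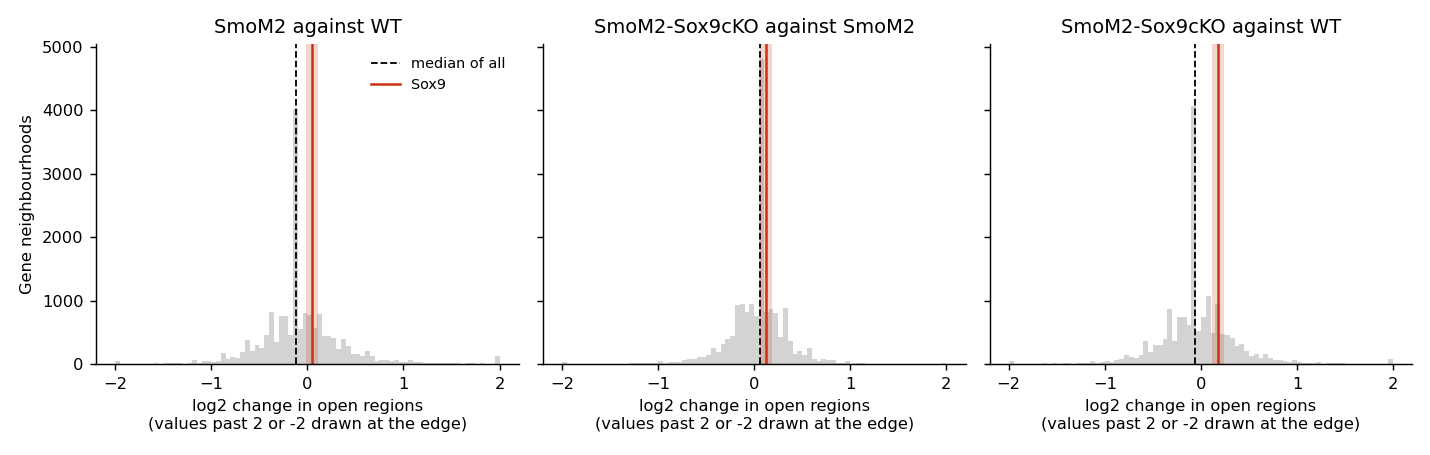
Change in open regions at Sox9 among all gene neighbourhoods. Grey bars count the 17338 neighbourhoods by log2 change for each of the 3 comparisons; the dashed line is their median and the red line with its band is Sox9 with its SE. Sox9 lies at 0.05, 0.13 and 0.18, within the bulk of the neighbourhoods each time.

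Of the gaps beside Sox9, the one towards Kcnj2 had 41, 46 and 49 open regions in WT, 46, 50 and 53 in SmoM2, and 56, 51 and 45 in SmoM2-Sox9cKO. All 3 groups overlapped there, and the log2 changes were 0.01 for SmoM2 against WT (limma adjusted p = 0.918), 0.09 for SmoM2-Sox9cKO against SmoM2 (adjusted p = 0.742) and 0.10 for SmoM2-Sox9cKO against WT (adjusted p = 0.479). Over 7608 gaps, 11.8%, 1.24% and 7.93% were called.

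In the gap towards Slc39a11 the numbers were 43, 44 and 47 in WT, 49, 53 and 54 in SmoM2, and 52, 59 and 56 in SmoM2-Sox9cKO. Both other groups lay above every WT library. The scaled log2 change was 0.09 (SE 0.09, limma adjusted p = 0.443) for SmoM2 against WT, 0.16 (SE 0.09, adjusted p = 0.59) for SmoM2-Sox9cKO against SmoM2 and 0.25 (SE 0.09, adjusted p = 0.142) for SmoM2-Sox9cKO against WT. The last passed with covered base pairs (0.33, limma adjusted p = 0.0194), without scaling (0.31, adjusted p = 0.0377) and without SmoM2-Sox9cKO replicate 1 (0.35, adjusted p = 0.0284).

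Along the stretch, 12 windows of 200 kb were tested with all 8619 windows of the genome. SmoM2 differed from WT in 4 of the 12, against 26.2% of all windows: 3 were higher and 1 was lower, against 14.4% and 11.8%. SmoM2-Sox9cKO differed from WT in 3 of the 12, all higher, against 18% of all windows called and 9.95% higher. None differed between SmoM2-Sox9cKO and SmoM2 by limma after adjustment, against 1.53% of all; 4 of the 12 had an unadjusted p under 0.05, as did 1517 of all 8619. These counts are near the background, and they shrank to 1 or 2 windows for SmoM2 against WT when any of the 6 libraries was left out. Over the genome 1527 to 1808 windows were then called, in place of 2257. For SmoM2-Sox9cKO against WT, 1 window was called without WT replicate 1, 2 or 3 or without SmoM2-Sox9cKO replicate 2. Over the genome these fits called 1027 to 1095 windows, in place of 1548.

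The window with the clearest difference lay far from Sox9, 1382 to 1582 kb away on the Kcnj2 side (chr11:111200001-111400000). It held no open region in any WT library, 4, 7 and 5 in SmoM2 and 2, 4 and 2 in SmoM2-Sox9cKO, and none in Embryo. WT did not overlap with either group, and no fold is given because WT was at 0. It was higher in SmoM2 (limma adjusted p = 3.82e-05) and in SmoM2-Sox9cKO (adjusted p = 0.000398) than in WT, while SmoM2-Sox9cKO against SmoM2 did not pass (adjusted p = 0.193). Over the alternatives run, the adjusted p stayed between 1.61e-05 and 0.000947 for SmoM2 and between 0.000162 and 0.00243 for SmoM2-Sox9cKO.

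Other called windows rested on single libraries. The window 982 to 1182 kb from Sox9 held 1 open region in every WT library and 2 in every SmoM2 and SmoM2-Sox9cKO library (log2 0.61, limma adjusted p = 0.0481, and log2 0.68, adjusted p = 0.0436), and each call was lost when any library of the groups compared was left out. The window 582 to 782 kb away fell in SmoM2, with 11, 14 and 14 in WT and 11, 11 and 12 in SmoM2, groups that overlap (log2 -0.31, SE 0.09, limma adjusted p = 0.0284); SmoM2-Sox9cKO had 13, 12 and 13. That call was lost without WT replicate 2 or 3 or SmoM2 replicate 1 or 3.

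Nearest to Slc39a11, the window at 412 to 612 kb, most of which lies in Slc39a11 itself, had 14, 15 and 15 open regions in WT, 19, 20 and 20 in SmoM2 and 20, 20 and 15 in SmoM2-Sox9cKO. SmoM2 lay above WT in all libraries (log2 0.29, SE 0.10, limma adjusted p = 0.0492), a call lost when any of the 6 libraries was left out. The window at 212 to 412 kb, inside the gap, had 22, 24 and 25 in WT, 27, 32 and 33 in SmoM2 and 29, 33 and 31 in SmoM2-Sox9cKO. WT lay below both groups; SmoM2-Sox9cKO against WT passed (log2 0.32, SE 0.09, limma adjusted p = 0.0351) and SmoM2 against WT did not (log2 0.24, adjusted p = 0.0777). Leaving out any WT library, or SmoM2-Sox9cKO replicate 2 or 3, ended that call. In a fit with a covariate for Y-linked intervals, which was added once the data had been seen, 1 window differed between SmoM2 and WT and 2 between SmoM2-Sox9cKO and WT. Of all windows, that fit called 1195 and 1401, in place of 2257 and 1548.

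**Figure D4:**
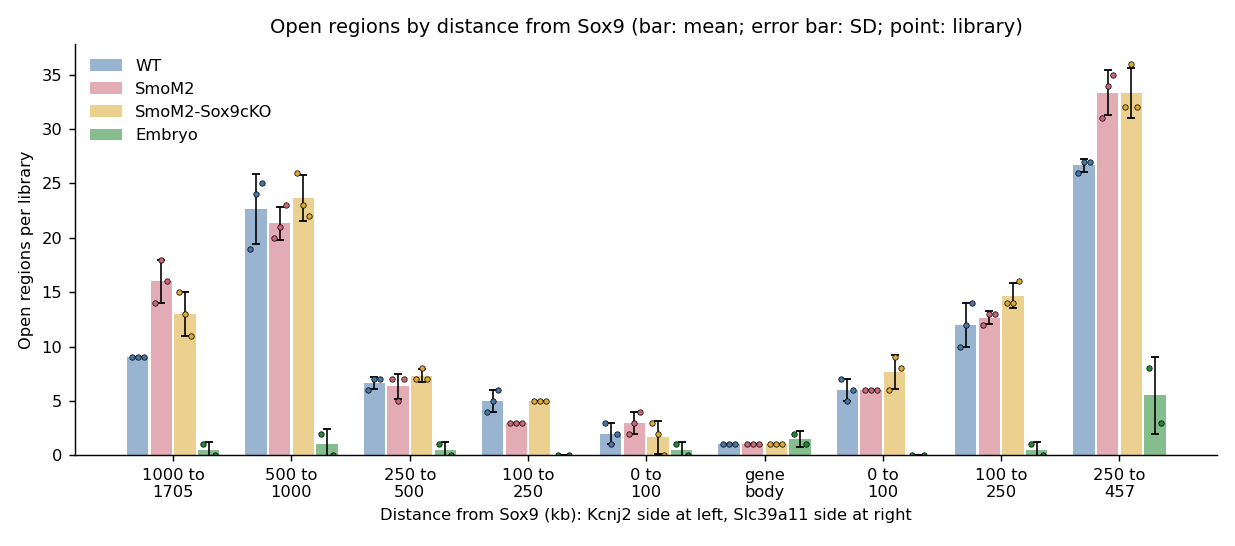
Open regions by distance from Sox9. Bars are group means with SD and points are libraries, for each of the 4 groups (n = 3, Embryo n = 2), in distance classes on each side of the gene (kb). More than 1000 kb away on the Kcnj2 side WT holds 9 in each library against 14, 18 and 16 in SmoM2, and nearest to Slc39a11 26 to 27 against 31 to 35. At 100 to 250 kb on the Kcnj2 side WT lies above SmoM2, with 4, 5 and 6 against 3 in each library, and SmoM2-Sox9cKO holds 5 in each.

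Single regions were called where all 3 libraries of one group were open and none of the other, a rule that gives no p-value. In SmoM2 against WT, 21 of the 166 were gained (12.7%) against 6.91% of all regions, and 11 were lost (6.63%) against 3.11%. Of the 133 regions more than 50 kb from a coding gene, 16 were gained (12%) and 10 lost (7.52%), against 10.7% and 3.75% of all regions at such a distance. The share of gains in the stretch was thus close to that of distal regions elsewhere, and the share of losses was higher; neither difference was tested. Gains made up 14.3% of the regions on the Kcnj2 side and 11.2% of those on the Slc39a11 side, and losses 10.7% and 2.5%; the difference between the sides was not tested. None of the gained or lost regions was open in Embryo; of all regions called the same way, 413 of 8637 gained and 127 of 3887 lost were, so a count of 0 is near the background.

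The 21 gained regions lay from 14.1 to 1688.9 kb from Sox9, with a median width of 820 bp, and 2 of them within 100 kb. The nearest (chr11:112767207-112768073), 14.1 kb away on the Kcnj2 side, had folds of 5.24, 3.77 and 5.04 in SmoM2, 3.59 and 4.23 in SmoM2-Sox9cKO replicates 1 and 2 and no interval in replicate 3. On the Slc39a11 side, chr11:112833768-112834587 at 46.0 kb was open in all 3 SmoM2 libraries with folds of 6.16, 8.29 and 9.01 and in all 3 SmoM2-Sox9cKO libraries with 6.08, 8.40 and 8.83. Further away on the Kcnj2 side, chr11:112232118-112233095 at 549.1 kb had folds of 8.10, 10.98 and 8.15 in SmoM2. None of these 3 was open in a WT or Embryo library.

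Still farther out, chr11:112116281-112118174, at 664.0 kb, was the widest gained region with 1894 bp and was open in all 3 SmoM2-Sox9cKO libraries too. At the far end of the desert the most distant gained region, chr11:111092744-111093318, lay 1688.9 kb from Sox9 and close to Kcnj2. The long noncoding gene 2610035D17Rik held 6 of the 21 gained regions, 3 of which also lay in LOC115487747, and 15 lay outside any annotated gene. Those in LOC115487747 were weak, between the 0.6 and 7.0 percentile of the SmoM2 lists by fold.

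Gained regions were mostly open in SmoM2-Sox9cKO as well. Of the 21, 12 were open in 3 of its libraries, 3 in 2, 5 in 1 and 1 in none, a share of 57.1% in all 3 against 44.9% for all 8637 gained regions of the genome. The one absent from every SmoM2-Sox9cKO library was chr11:113180186-113180503 at 392.4 kb on the Slc39a11 side, a region of 318 bp. By fold it ranked at the 3.1, 0.6 and 1.8 percentile of the SmoM2 lists, among their weakest intervals. This region is the single one lost in SmoM2-Sox9cKO against SmoM2 (0.602% of the 166, against 1.34% of all and 2.17% of distal regions).

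The 11 lost regions lay from 149.8 to 820.1 kb from Sox9, 9 of them on the Kcnj2 side and all outside annotated genes. In SmoM2-Sox9cKO 4 were open in none of the libraries (36.4%, against 57% of all 3887 lost regions), 2 in 1, 4 in 2 and 1 in 3. That last region, chr11:112406260-112407201 at 375.0 kb, had folds of 6.91, 8.54 and 8.48 in WT, no interval in SmoM2, and 4.42, 3.33 and 4.76 in SmoM2-Sox9cKO. WT and SmoM2-Sox9cKO were thus open there and SmoM2 was not.

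Distances from the 11 lost regions to the nearest gained region are given without a background, since they were not taken for all regions. The lost region chr11:112234482-112235310 lay 1.4 kb from the gained region at 549.1 kb, and the lost region chr11:111960955-111962109 lay 2.1 kb from the gained region chr11:111957831-111958822. For the other 9 lost regions the nearest gained region was 11.2 to 134.8 kb away.

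In SmoM2-Sox9cKO against SmoM2, 3 of the 166 regions were gained (1.81%, against 0.678% of all and 0.685% of distal regions): the region at 375.0 kb just described, chr11:112097920-112098532 at 683.7 kb, which was open in SmoM2-Sox9cKO only, and chr11:112902596-112902998 at 114.8 kb, which was open in WT replicate 3 too. In SmoM2-Sox9cKO against WT, 14 were gained (8.43%, against 4.26% of all and 5.96% of distal regions) and 4 lost (2.41%, against 2.69% and 3.36%). With each library left out in turn, SmoM2-Sox9cKO against SmoM2 had 3 to 7 gained and 2 to 5 lost regions. SmoM2-Sox9cKO against WT then had 4 to 7 lost, highest without WT replicate 1 or SmoM2-Sox9cKO replicate 1. Leaving out a library loosens the rule for a call, so these counts could not fall. Of the 14 gained against WT, 12 were also among the regions gained in SmoM2; both comparisons share the WT libraries.

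The Embryo lists held little of this stretch. Embryo replicate 1 was open at 16 of the 166 regions (9.64%, against 19.6% of all regions) and replicate 2 at 4 (2.41%, against 11.2%), and all 4 were among the 16. Among the 133 regions more than 50 kb from a coding gene, replicate 1 was open at 10 (7.52%) and replicate 2 at 1 (0.752%), against 12.2% and 6.22% of all regions at such a distance. Of the 16, 9 were open in all 9 esophagus libraries and 7 in none of them. Besides the Sox9 start, the regions open in all 11 libraries were chr11:113059923-113061471 at 272.2 kb, chr11:113199824-113202002 at 412.1 kb, which holds the start of 2610035D17Rik, and chr11:113231820-113232746 at 444.1 kb. When all lists were cut to their 14255 strongest intervals, both Embryo libraries were open at 4 of 28 regions, WT at 15 to 17, SmoM2 at 12 to 13 and SmoM2-Sox9cKO at 14 to 17. Both Embryo libraries lay below every esophagus library with full and with cut lists, and this difference was not tested.

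The flanking genes were tested by the same fit. The Kcnj2 neighbourhood (chr11:111027969-111721936) ends at Gm11677 and includes the far end of the Sox9 stretch. The window 1382 to 1582 kb from Sox9 lies in it, so it is not a separate result. It had 10, 12 and 11 open regions in WT, 14, 19 and 16 in SmoM2, 16, 14 and 12 in SmoM2-Sox9cKO and 1 in each Embryo library. SmoM2 lay above WT without overlap (log2 0.42, SE 0.13), which did not pass (limma adjusted p = 0.0644); covered base pairs gave -0.05. The Slc39a11 neighbourhood, which includes the gap beside Sox9, had 60, 62 and 65 in WT, 80, 83 and 86 in SmoM2, 78, 88 and 75 in SmoM2-Sox9cKO and 16 and 6 in Embryo. It was higher than WT in SmoM2 (log2 0.29, SE 0.08, limma adjusted p = 0.0394) and in SmoM2-Sox9cKO (log2 0.30, SE 0.08, adjusted p = 0.0452), with no overlap in either. The SmoM2 call was lost when any WT or SmoM2 library was left out (adjusted p 0.0617 to 0.116), and the SmoM2-Sox9cKO call without WT replicate 1, 2 or 3 or SmoM2-Sox9cKO replicate 2 or 3 (0.074 to 0.13). Both calls also ended with lists of equal length (adjusted p = 0.076 and 0.0737) and with the Y-linked covariate (0.185 and 0.0881), and the SmoM2-Sox9cKO call with only the 6 libraries compared (0.0707).

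Deserts other than that of Sox9 held a larger share of calls than neighbourhoods at large. Genes beside one gap share it, among deserts and at large, so the counts and ranks below hold some stretches more than once. The desert of Gm11677, inside the Sox9 stretch, is among them. Of 662 tested, 204 were higher and 50 lower in SmoM2 than in WT (38.4%, against 14.4% of all neighbourhoods), with a median log2 change of 0.21 against -0.12; over all neighbourhoods 6.95% were higher and 7.41% lower. In SmoM2-Sox9cKO against SmoM2, 33 were lower and 0 higher (4.98%, against 0.929% of all, 0.317% higher and 0.611% lower; median -0.19 against 0.06), and against WT 92 were higher and 59 lower (22.8%, against 9.3% of all, 4.83% higher and 4.47% lower; median 0.02 against -0.06). The 33 became 10, 12 and 15 without SmoM2 replicate 1, SmoM2 replicate 2 and SmoM2-Sox9cKO replicate 3, and the calls against WT, 151 in all, became 95, 100 and 97 without WT replicates 1, 2 and 3. Calls over all neighbourhoods became 48, 45 and 69 in place of 161, and 1133, 1119 and 1115 in place of 1613. Among these deserts with that of Sox9, 663 in all, Sox9 ranked 410 from the highest in SmoM2 against WT, 71 in SmoM2-Sox9cKO against SmoM2 and 237 in SmoM2-Sox9cKO against WT. The desert of Cdh19, a cadherin of neural crest derivatives, had 6, 6 and 5 open regions in WT and 0 in every SmoM2 and SmoM2-Sox9cKO library (limma adjusted p = 7.49e-07 and 7.39e-07). The 6 neural crest and glia markers summed to 9 to 13, 8 to 9 and 8 to 12 in WT, SmoM2 and SmoM2-Sox9cKO, and their part in this was not tested. The desert of Nrsn1, which encodes the neuronal protein neurensin and shares its regions with Hdgfl1, was open at 6, 8 and 6 regions in SmoM2 and at none in WT or SmoM2-Sox9cKO (limma adjusted p = 2.95e-06 and 4.23e-06).

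Genes of the Hedgehog pathway, which SmoM2 activates, were counted by the same measure. Of 18 tested, 2 were higher (Ptch1 and Shh) and 3 lower (Cdon, Boc and Gas1) in SmoM2 than in WT (27.8%, against 14.4% of all neighbourhoods), with a median log2 change of 0.08 against -0.12. Around Ptch1, the Hedgehog receptor and a target of the pathway, there were 8, 11 and 10 open regions in WT, 22, 21 and 25 in SmoM2 and 23 in each SmoM2-Sox9cKO library, so WT lay below all others (log2 1.07, SE 0.08, limma adjusted p = 0.00014, and log2 1.16, adjusted p = 0.000152, against WT). The neighbourhoods of the co-receptors Boc (log2 -0.40, SE 0.07, limma adjusted p = 0.00831) and Gas1 (log2 -0.35, SE 0.06, adjusted p = 0.00609) fell; both calls were lost without scaling (adjusted p = 0.185 and 0.272). The co-receptor Cdon had a log2 change of -0.46 (limma adjusted p = 0.0166), a call lost without scaling or without WT replicate 1, WT replicate 2 or SmoM2 replicate 2. No Hedgehog gene passed limma's test between SmoM2-Sox9cKO and SmoM2, against 0.929% of all neighbourhoods, and 7 of the 18 had an unadjusted p under 0.05, as did 2433 of all 17338 neighbourhoods. Gas1 came nearest (log2 0.30, limma adjusted p = 0.0631). It had 46, 52 and 53 open regions in WT, 44, 38 and 47 in SmoM2 and 56, 46 and 50 in SmoM2-Sox9cKO. It passed with lists of equal length, fixed windows at summits, no filter, covered base pairs or without SmoM2-Sox9cKO replicate 2. Its adjusted p ran from 0.0154 to 0.507 over the alternatives. Next was Boc, with 19, 19 and 22 in SmoM2 and 27, 21 and 23 in SmoM2-Sox9cKO (limma adjusted p = 0.115). In SmoM2-Sox9cKO against WT, 2 of the 18 were higher (Ihh and Ptch1) and 2 lower (Hhip and Cdon), or 22.2% against 9.3%. Ihh had 0, 1 and 1 open regions in WT and 3, 2 and 3 in SmoM2-Sox9cKO. Its call was lost in 2 fits with a library left out (limma adjusted p 0.0776 to 0.0781). The Hhip call was lost in 4 such fits (0.0612 to 0.0748), and that of Cdon without scaling (0.154). Over this list and the next 2 together, 14 genes were called in SmoM2 against WT, and 5 to 8 when any of the 6 libraries was left out. All called neighbourhoods then numbered 1562 to 1944, in place of 2489. In SmoM2-Sox9cKO against WT, 8 genes of the lists were called, and 5 without WT replicate 2 or SmoM2-Sox9cKO replicate 1. All called neighbourhoods were then 1119 and 1261, in place of 1613.

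Of 17 tested genes of the Sox family other than Sox9, 2 were higher (Sox13 and Sox5) and 4 lower (Sox11, Sox1, Sox7 and Sox21) in SmoM2 than in WT (35.3%, against 14.4%, median 0.00). With a library left out, the calls of Sox1 and Sox7 were lost in 5 fits each (limma adjusted p 0.0793 to 0.136 and 0.0789 to 0.138). That of Sox13 was lost in 4 (0.0551 to 0.102). Sox11, a neural and progenitor factor that also sits in a desert, had 3, 14 and 11 open regions in WT, 0, 2 and 2 in SmoM2 and 0, 1 and 0 in SmoM2-Sox9cKO; WT lay above both (log2 -2.64, SE 0.73, limma adjusted p = 0.0422, and log2 -3.60, adjusted p = 0.0163). The first of these calls was lost without WT replicate 2 or 3 or SmoM2 replicate 1 or 3, and the second without WT replicate 2 or 3 or SmoM2-Sox9cKO replicate 1. None of the family passed limma's test between SmoM2-Sox9cKO and SmoM2, with 3 at an unadjusted p under 0.05. Sox5 came nearest (log2 -0.36, limma adjusted p = 0.163, and 0.0357 to 0.397 over the alternatives). In SmoM2-Sox9cKO against WT 1 was higher (Sox13) and 2 lower (Sox11 and Sox17), or 17.6% against 9.3%. That Sox13 call was lost in 4 fits with a library left out (limma adjusted p 0.0524 to 0.0779).

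Cartilage genes known to be driven by SOX9 were near the background. Of 17 tested, 1 was higher (Ucma) and 2 were lower (Col9a1 and Col27a1) in SmoM2 than in WT (17.6%, against 14.4%), with a median of -0.12 as for all neighbourhoods. With a library left out, the Col9a1 call was lost in 4 fits (limma adjusted p 0.0532 to 0.0667) and that of Col27a1 in 5 (0.0691 to 0.104). Around Ucma, which encodes a cartilage matrix protein, no region was open in WT, 1, 1 and 2 were open in SmoM2 and 1, 2 and 2 in SmoM2-Sox9cKO (limma adjusted p = 0.0026 and 0.00187 against WT). None of the 17 passed limma's test between SmoM2-Sox9cKO and SmoM2, with 1 at an unadjusted p under 0.05 and a median of 0.22 against 0.06 for all. In SmoM2-Sox9cKO against WT only Ucma passed (5.88%, against 9.3%).

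The neighbourhoods most like that of Sox9 over the 9 esophagus libraries, by Pearson r of the scaled value among 16345 compared, were Endov (0.943), Aopep and Fancc, which share one neighbourhood (0.937), Cd7 (0.937) and Wdr76 (0.93). The 9 points share their library totals, and r is given as a description. The Aopep and Fancc neighbourhood had 44, 47 and 50 open regions in WT, 48, 52 and 54 in SmoM2 and 59, 56 and 54 in SmoM2-Sox9cKO.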

How the data were processed

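Per the labels' protocols, esophageal cells were sorted, nuclei were treated with Illumina transposase, and libraries were sequenced as paired ends. The submitters' processing notes name Trimmomatic, Bowtie2, Picard, MACS2, deepTools and GRCm38/mm10; no tool version or setting is given in the sources used here. Each of the 11 deposited lists is a MACS2 peak list of 1 library. The score column was made by the authors and not used. The fold enrichment column is the authors' value for each peak, used only within a list. The authors' columns of −log10 p-value and −log10 q-value (MACS2) served here to rank or filter intervals. The summit offset was likewise deposited by the authors. Read depth is unknown, so no interval or detection limit is given.

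Intervals were merged at 1 bp or more of overlap into 124941 regions (median width 693 bp), with genes from RefSeq GRCm38.p6. Neighbourhoods, gaps between coding genes and 200 kb windows with a mean of at least 1 open region were tested with limma 3.58.1 (R 4.3.3; trend on, robust off) on log2((open regions + 0.5)/(total open regions + 1) × 100000), with the 9 esophagus libraries in 1 fit and Benjamini-Hochberg adjustment within each comparison at 0.05. Equal numbers in every library of a group leave little spread, and p-values are then small. More open regions is not more signal and not expression. In bulk libraries, fewer cells of a type and fewer open copies per cell cannot be told apart. Exact permutation tests used scipy 1.17.1.

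The members, gene lists and rules were chosen with earlier results of these data known. Named genes are Sox9 and its neighbours, up to 4 called members of each gene list by size of change, up to 3 deserts each way, and the 5 genes most like Sox9; not all of those are printed. Named regions are those at or within 10 kb of Sox9, those called, those open in all 11 libraries, the widest and the outermost. Same-numbered libraries did not deviate together more than others (correlations -0.079 to 0.091, against -0.099 to 0.096 for different numbers). Correlations among so few libraries cannot exclude a shared preparation. Numbers were not used to pair samples in the main fit. Alternatives changed the interval filter, list length, overlap, pseudocount, filter, scaling, measure, libraries fitted, replicate block, chromosomes and window size, and left out each library in turn.

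The fit was tested on simulated data. Its design was changed after earlier versions recovered few changed loci; in one with unbalanced change, scaling by totals led to many calls at unchanged loci. In the last version more untouched loci were called than the threshold allows, and part of the changed loci were missed at each size of change simulated, the larger included, so real changes may go uncalled and some calls may be false.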

Additional observations from a re-analysis of the deposited data

How the results depend on the processing

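Single libraries and list handling moved many counts. In the fits run, the log2 change of the Sox9 neighbourhood kept its sign except without SmoM2 replicate 2. No fit was run with all 11 lists cut to 14255 intervals, where WT was open at 17, 15 and 15 regions. SmoM2 was open at 13, 13 and 12 there, below WT. Leaving out each library gave, for SmoM2 against WT, -0.006 to 0.086 at the Sox9 neighbourhood, -0.044 to 0.05 in the gap between Kcnj2 and Sox9, -0.005 to 0.079 for the difference per 1000 open regions, 1 to 2 called windows and 5 to 8 called genes of the 3 fixed lists (14 with all libraries). For SmoM2-Sox9cKO against WT it gave 0.196 to 0.348 in the gap between Sox9 and Slc39a11, 1 to 4 windows, 4 to 7 lost regions, 5 to 8 list genes and 95 to 151 deserts. For SmoM2-Sox9cKO against SmoM2 it gave 3 to 7 gained and 2 to 5 lost regions, 0 to 2 list genes and 10 to 47 deserts. In the same order of comparisons, all called neighbourhoods numbered 1562 to 1944, 1031 to 1437 and 45 to 210. With all libraries they numbered 2489, 1613 and 161. Numbers of gained and lost regions cannot fall when a library is left out, so their ranges do not test the calls.

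In the gap between Kcnj2 and Sox9, SmoM2 against WT reversed to -0.079 at a −log10 q of at least 5, -0.076 with lists of equal length, -0.006 with fixed windows at summits, -0.011 with covered base pairs and -0.026 with the Y-linked covariate, which was added after seeing the data. SmoM2-Sox9cKO against WT reversed there to -0.002 at that q and -0.005 with covered base pairs. With covered base pairs the Sox9 neighbourhood passed in SmoM2-Sox9cKO against WT (0.169) and so did the gap towards Slc39a11 (0.332), which also passed without scaling (0.314). Covered base pairs called 2924 neighbourhoods and 1098 gaps in this comparison, in place of 1613 and 603. The Kcnj2 neighbourhood reversed with covered base pairs in SmoM2 (-0.052) and SmoM2-Sox9cKO (-0.134) against WT. Between SmoM2-Sox9cKO and SmoM2 it reversed at that q (0.163), with equal lists (0.018) and without SmoM2 replicate 2 (range without each library -0.243 to 0.005). There the Slc39a11 neighbourhood reversed without scaling (-0.050), without SmoM2 replicate 1 (-0.002) or 3 (-0.021), and without SmoM2-Sox9cKO replicate 2 (-0.069). The cause was not tested in any of these.

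Called windows numbered 2 with no filter and 1 with the Y-linked covariate in SmoM2 against WT, and 1 with windows of 100 kb in SmoM2-Sox9cKO against SmoM2. Over the genome these fits called 2517 of 10154, 1195 of 8619 and 93 of 14581 windows. At a −log10 q of at least 5, SmoM2 against WT had 13 gained and 7 lost regions, and SmoM2-Sox9cKO against SmoM2 0 and 2. A difference of at least 2 libraries gave 33 and 21 for SmoM2 against WT, 15 and 13 for SmoM2-Sox9cKO against SmoM2, and 28 and 13 for SmoM2-Sox9cKO against WT. With 50% or more of the region required to be covered, 6 and 10 were lost in the last pair of comparisons, and with equal lists 7 were lost in SmoM2-Sox9cKO against WT. Of 54 region calls, 53 held with fixed windows at summits, 40 with equal lists, 35 with that coverage and 23 at that q. Embryo replicate 1 was open at 4 regions with all 11 lists equal and at 6 at that q.

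Called genes of the fixed lists in SmoM2 against WT were 7 with equal lists, 4 without scaling and 6 with the Y-linked covariate. All called neighbourhoods were 2201, 1472 and 1099 there, in place of 2489. In SmoM2-Sox9cKO against SmoM2 the list genes called were 2 with equal lists, 2 with fixed windows at summits, 1 with no filter and 3 with covered base pairs, and against WT 5 at that q, 5 at a mean of at least 2 and 2 without scaling. All called neighbourhoods were 199, 175, 239 and 380 in place of 161, and against WT 1638, 1506 and 838 in place of 1613. Called deserts were 169 without scaling and 152 with the covariate in SmoM2 against WT, where all called neighbourhoods were 1472 and 1099. In SmoM2-Sox9cKO against SmoM2 the called deserts were 18 with equal lists, 60 with covered base pairs, 14 without scaling, 11 with only the 6 libraries compared and 16 with the covariate, and against WT 229 with covered base pairs and 57 without scaling. All called neighbourhoods were 199, 380, 122, 56 and 81 there, and against WT 2924 and 838. With the replicate number as a block, called neighbourhoods were 2414, 142 and 1561 in place of 2489, 161 and 1613, the Sox9 adjusted p was 0.594, 0.396 and 0.113, and the Kcnj2 neighbourhood passed in SmoM2 against WT (limma adjusted p = 0.0497). Read depth is unknown, so a region without an interval is not shown to be closed.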
